A study of Mus musculus with 43 samples.

Results

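Medium spiny neurons are the GABAergic projection neurons of the striatum, and a compact set of transcription factors builds and maintains their identity. The levels of 10 of these factors, *Foxp1*, *Meis2*, *Rarb*, *Bcl11b*, *Mef2c*, *Foxp2*, *Isl1*, *Ebf1*, *Six3* and *Sp9*, were read in single neurons of mice fed a regular or a high-fat diet. The list was set by name, with earlier results of these data known, and holds 10 of the 35825 genes listed. A filter on low values, which asked for more than 15 CPM (counts scaled to a library of 1000000) in at least 5 cells and a mean above 4 CPM, left 10802 genes. It kept 9 of the 10 factors, and *Sp9* was the factor it removed.

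Each of the 43 libraries held the cytosol of 1 neuron of the lateral nucleus accumbens that carried fluorescent beads taken up from the ventral tegmental area (NAcLat→VTA cells), drawn into the pipette after a patch-clamp recording. The labels place 23 cells in the regular diet group (REG, labelled NORM), fed standard chow, and 20 in the high-fat diet group (HFD), given standard chow and high-fat chow side by side for several weeks. By batch, the REG cells divide into 13 of batch 1 and 10 of batch 2 and the HFD cells into 5 and 15, so that batch and diet overlapped unevenly, and the sources used here do not say what a batch was. The study worked with young adult mice of both sexes and drew the cells of each diet from several of them. The mouse behind each cell is not given in the labels, and neither are its strain and sex, so each diet counted as 1 sample and no test or p-value was made from cells. Cells are called by diet and by a number that only names them.

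The 10 factors fall into 3 groups by what is known of their roles. *Foxp1* (a forkhead repressor), *Meis2* (a homeodomain factor of the lateral ganglionic eminence), *Rarb* (the beta receptor for retinoic acid), *Bcl11b* (the zinc-finger factor CTIP2) and *Mef2c* (a MADS-box factor that responds to neuronal activity) are used by medium spiny neurons of both output pathways. *Isl1*, a LIM-homeodomain factor, and *Ebf1*, a helix-loop-helix factor, guide the neurons of the direct pathway, which carry the dopamine receptor *Drd1*, and *Foxp2*, a close relative of *Foxp1*, is also stronger there. *Sp9*, a zinc-finger factor, and *Six3*, a homeodomain factor, promote the neurons of the indirect pathway, which carry *Drd2*.

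The promoter of *Rarb* is shown because it holds an element by which retinoic acid receptors act on their own gene, a textbook case of a target of the receptor encoded there. Retinoic acid receptors bind, with a retinoid X receptor, to a repeated half-site. The RefSeq windows of 250 bases before to 50 bases after each start site (GRCm38.p6) covered 9 of the 10 factors. The letters searched, on both strands, were GTTCA, then any 6 bases, then GTTCA. They were found in 25 of 32851 windows (0.0761%), and among the 14 windows of the factors in 1, that of *Rarb*. No other gene of the lists described here held them. The letters searched are those of the known element of this promoter, so the match in the *Rarb* window was set in advance. The counts of windows therefore measure no enrichment. The bases below are written 5′ to 3′ on the minus strand, chr14:16575506-16575535. Capitals mark the letters searched, which need not be the whole half-sites, and this match lies 52 to 37 bases before the RefSeq start site.
Rarb: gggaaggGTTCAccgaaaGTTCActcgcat
In the GENCODE annotation of the same build, 4 of the 7 transcripts of *Rarb* span these bases, and 2 annotated exons of the gene overlap them. A match of letters is a description of the window and not a measured site.

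The cells carried the genes by which medium spiny neurons are known. *Ppp1r1b* (DARPP-32), *Drd1*, *Pdyn* and *Tac1* had counts in 43 of 43 cells, whereas *Drd2* had counts in 9 cells and *Adora2a* in 13. *Penk*, the peptide of indirect-pathway neurons, had counts in 35 cells, with a median of 13.2 CPM and a highest value of 1254 CPM. Total counts ranged from 176961 to 16919555 per cell, with a median of 1427698 in REG and 1416982 in HFD cells. The markers of glia varied widely between cells. The summed level of 7 microglia markers had a median of 62.8 CPM in REG (0.972 to 1679) and 71.5 CPM in HFD (3.81 to 1643). Of the 6 markers in the filter, *P2ry12* and *Csf1r* were past a 2-fold difference and higher in HFD cells in both batches. *Cx3cr1*, which the filter removed, had a log2 ratio of HFD over REG of 3.26 (2.01 in batch 1 and 2.92 in batch 2). All 7 were above 0 in both batches. Among all filtered genes, 23.3% were past 2-fold and 47% kept their sign in both batches. The 5 astrocyte markers summed to a median of 9.57 CPM in REG (0 to 260.8) and 10.02 CPM in HFD (0 to 156.7), and the 5 oligodendrocyte markers to 97.7 CPM (1.41 to 1126) and 149.2 CPM (3.59 to 1781). Endothelial markers had a median of 2.38 CPM in REG and 0.762 CPM in HFD. Their part in the levels of the factors was not tested. In HFD cell 8, 85.8% of the counts belonged to *Lars2* and *Gm19220* (median over cells 29.7%), and its 10 factors summed to 161.8 CPM, the lowest sum of any cell.

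*Foxp1* was the most abundant of the factors per transcript length, and the order below it ran *Meis2*, *Rarb*, *Foxp2*, *Mef2c*, *Bcl11b*, *Isl1*, *Ebf1*, *Six3* and *Sp9*. Levels between genes were compared in TPM, in which counts are corrected for transcript length and scaled to 1000000. The median TPM over the 43 cells was 195.7 for *Foxp1*, 165.8 for *Meis2*, 89.2 for *Rarb*, 72.1 for *Foxp2* and 63.7 for *Mef2c*. It was 34.7 for *Bcl11b*, 14.1 for *Isl1*, 10.4 for *Ebf1*, 3.66 for *Six3* and 0.111 for *Sp9*. *Foxp1* stood at the 96.1st percentile of the median TPM of all filtered genes, *Meis2* at the 95.3rd and *Rarb* at the 91.0th, whereas *Six3* stood at the 43.2nd. The quartile ranges of all 9 neighbouring pairs in this order overlapped. *Foxp1* exceeded *Meis2* in 28 cells and *Mef2c* exceeded *Bcl11b* in 31, but *Rarb* exceeded *Foxp2* in 21 cells and was below it in 22. The order was the same among REG cells and within batch 1. Among HFD cells *Mef2c* passed *Foxp2*, and within batch 2 *Mef2c* took the third place and *Rarb* the fifth.

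**Figure D1:**
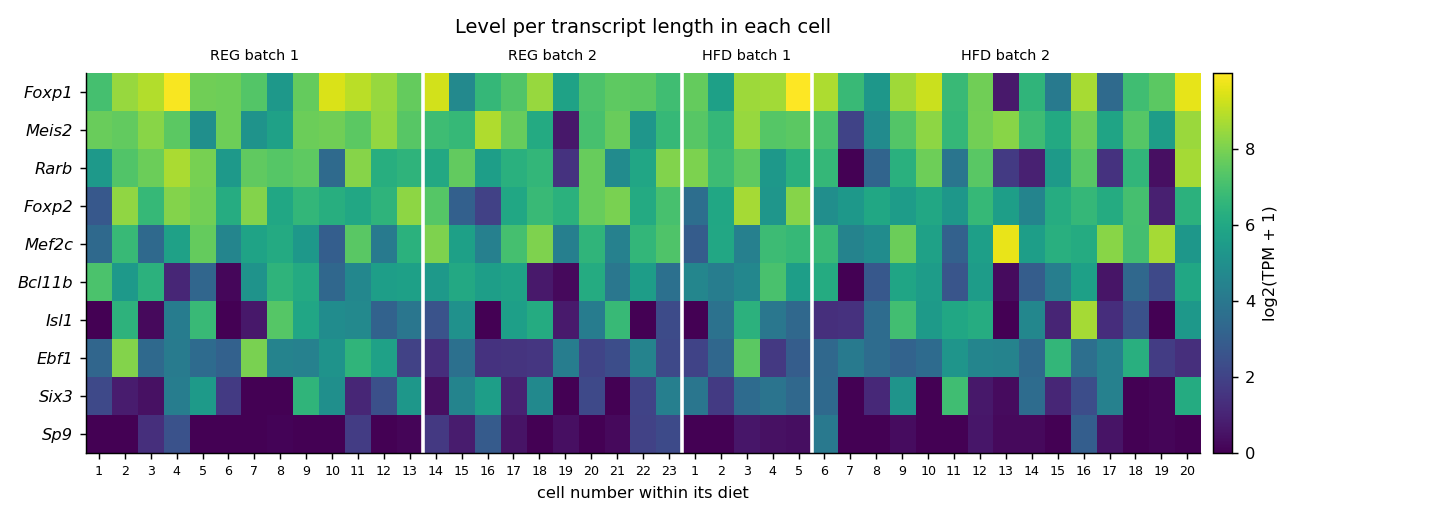
Level of the 10 factors (rows, in order of median TPM) in each of the 43 cells (columns, numbered within their diet), as log2(TPM + 1). The upper rows are bright in most columns, *Foxp1* with a median of 195.7 TPM, and *Sp9* is dark in nearly all, with a median of 0.111 TPM; HFD cell 13 is dark for *Foxp1* and *Rarb* and brightest for *Mef2c*.

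In 17 of 43 cells *Foxp1* was the highest of the 10 factors by TPM, in 8 cells it was *Meis2*, in 7 *Rarb*, in 6 *Foxp2* and in 3 *Mef2c*. *Ebf1* and *Six3* were each highest in 1 cell. The 3 cells led by *Mef2c* were HFD cells. Each cell held between 4 and 9 factors above 15 CPM, with a median of 7 in REG and 7 in HFD.

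Counts above 0 were found in all 43 cells for 5 factors, *Ebf1*, *Foxp1*, *Foxp2*, *Mef2c* and *Meis2*, a property that 10.1% of all filtered genes shared. *Bcl11b* and *Rarb* had counts in 42 cells, *Isl1* and *Six3* in 36 and *Sp9* in 24. After each cell was thinned to 150000 counts, *Mef2c* was the factor still present in 43 of 43 cells, *Foxp1*, *Foxp2* and *Meis2* were present in 42, and *Ebf1* and *Rarb* in 37. No factor was above 15 CPM in all cells, which 1.8% of filtered genes were. *Foxp1* came closest with 42 of 43 cells (97.7%, exact 95% binomial interval 87.7 to 99.9). *Sp9* passed 15 CPM in 3 cells (7.0%, 1.5 to 19.1). These intervals treat each cell as an independent draw and do not cover the spread between mice.

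Among the factors of both pathways, *Foxp1* and *Meis2* varied least from cell to cell. *Foxp1* lies on chromosome 6 from 98925338 to 99522721 (minus strand; all positions GRCm38). Its level ranged from 60.1 to 505.6 CPM in REG cells, with a median of 231.2, and from 1.42 to 1036 CPM in HFD cells, with a median of 217.1. The HFD cells thus reached both lower and higher than the REG cells, and the lowest 3 of them, HFD cells 13, 17 and 8, held 1.42, 16.9 and 24.0 CPM. The value of HFD cell 8 is lowered by *Lars2* and *Gm19220*, which took 85.8% of its counts. The coefficient of variation over the 43 cells was 0.76 for *Foxp1* and 0.71 for *Meis2*, and 2.36% and 1.52% of filtered genes had a lower value.

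*Meis2* (chromosome 2, 115863064 to 116065839, minus strand) ranged from 1.99 to 888.0 CPM in REG cells, with a median of 269.4, and from 7.75 to 721.4 CPM in HFD cells, with a median of 243.8. The diet groups overlapped over nearly their whole range. A single cell in each diet fell below 15 CPM, REG cell 19 and HFD cell 7.

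*Bcl11b* (chromosome 12, 107910403 to 108003602, minus strand) had a median of 82.1 CPM in REG cells (0.896 to 299.5) and 58.3 CPM in HFD cells (0 to 275.7). It was above 15 CPM in 19 of 23 REG and 16 of 20 HFD cells. The 5 HFD cells of batch 1 held 39.3, 110.4, 53.6, 275.7 and 88.2 CPM, all above 15 CPM, and the 4 HFD cells below that level belonged to batch 2.

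*Rarb* (chromosome 14, 16430839 to 16819156, minus strand) differed most between the diets in the share of cells above 15 CPM. Counts above 0 were found in 23 of 23 REG and 19 of 20 HFD cells. Among REG cells 21 of 23 were above 15 CPM (91.3%, 72.0 to 98.9), and among HFD cells 13 of 20 (65.0%, 40.8 to 84.6), and the intervals overlapped. That difference of -26.3 percentage points stood at the 4.95th percentile of all filtered genes, whose median was -3.48 points. All 7 HFD cells below the limit were in batch 2, where 8 of 15 HFD cells and 9 of 10 REG cells passed it, whereas in batch 1 all 5 HFD cells and 12 of 13 REG cells did. The 7 cells held 0 (HFD cell 7), 10.9 (cell 8), 8.29 (cell 11), 1.42 (cell 13), 1.60 (cell 14), 2.92 (cell 17) and 0.732 CPM (cell 19). In cell 8, 85.8% of the counts belonged to *Lars2* and *Gm19220*, which lowers the CPM of its other genes, *Rarb* among them. The totals of the 7 cells ran from 258089 to 5468192 counts, and *Gad1*, which makes GABA, lay between 61.1 and 875.5 CPM in them. They had between 6600 (cell 7) and 11259 (cell 14) detected genes, and cells 7, 19 and 11 were, at 6600, 7460 and 7832, among the lowest of the HFD cells. *Rgs9*, an effector gene of medium spiny neurons, lay between 1.42 and 72.8 CPM in 6 of them and at 398.9 CPM in cell 19 (HFD median 325.3 CPM), and *Pde10a* lay between 0.711 and 548.4 CPM (HFD median 512.6 CPM). Across HFD cells 7, 8, 11, 13, 14, 17 and 19, microglia markers summed to 1035, 4.79, 256.5, 7.23, 74.1, 267.0 and 243.6 CPM (HFD median 71.5 CPM). In the same order, astrocyte markers summed to 0, 2.40, 0, 43.7, 34.6, 156.7 and 22.3 CPM (HFD median 10.02 CPM). Oligodendrocyte markers summed to 42.6, 3.59, 150.6, 70.3, 1781, 662.2 and 762.2 CPM (HFD median 149.2 CPM). The part of other cell types, of the number of detected genes or of the effector genes in these values was not tested. With each cell thinned to 150000 counts, 22 of 23 REG cells (interval 78.1 to 99.9%) and 15 of 20 HFD cells (50.9 to 91.3%) still had *Rarb* counts. The mean level was 199.4 CPM in REG cells, which reached 676.6 CPM, and 153.3 CPM in HFD cells, which reached 596.0 CPM.

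*Mef2c* (chromosome 13, 83504034 to 83667080, plus strand) had a median of 111.4 CPM in REG cells (5.65 to 670.4) and 148.5 CPM in HFD cells (7.35 to 1858). The groups overlapped through most of their range, and the HFD values were shifted up in both quartiles, from 33.4 and 166.9 CPM in REG to 75.4 and 271.5 CPM in HFD cells. HFD cell 13 alone supplied 33.8% of the summed CPM of *Mef2c* in HFD cells. The 4 highest cells, all of batch 2, were HFD cell 13 at 1858, HFD cell 19 at 823.5, REG cell 18 at 670.4 and HFD cell 17 at 441.2 CPM. The 3 HFD cells among them were 3 of the 7 with *Rarb* below the limit, while REG cell 18 held 181.5 CPM of *Rarb*. The next cells in *Mef2c*, HFD cell 15 (418.6 CPM) and REG cell 14 (391.3 CPM), held 101.9 and 122.2 CPM of *Rarb*. Over all cells, Spearman's rho of *Mef2c* with *Rarb* was -0.04 (0.12 in batch 1 and -0.03 in batch 2).

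**Figure D2:**
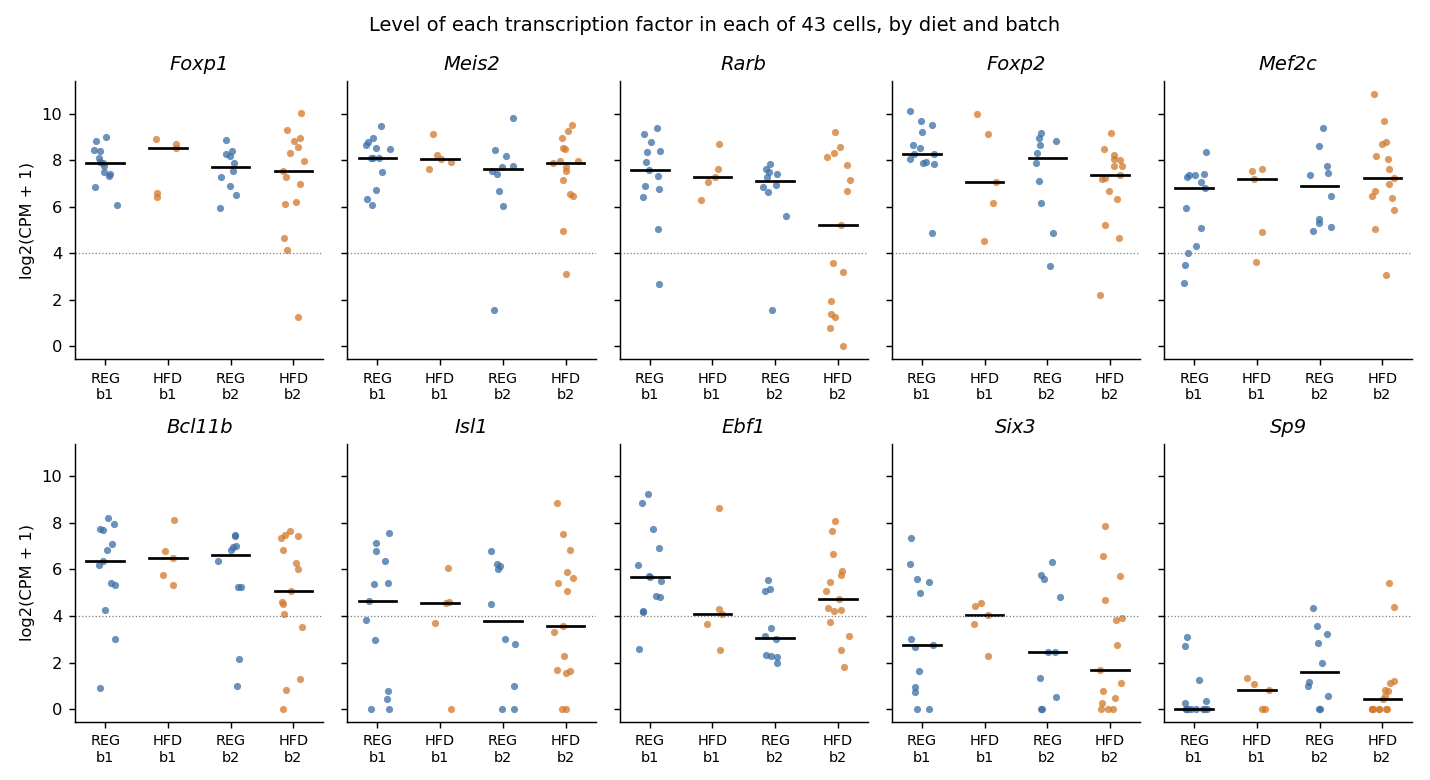
Level of each factor as log2(CPM + 1) in each cell (points), by diet and batch (b1, batch 1; b2, batch 2), with the median of each group as a bar and a dotted line at 15 CPM. In *Rarb*, 7 of the 15 HFD cells of batch 2 lie below the dotted line against 1 of the 10 REG cells of that batch, and in *Ebf1* the REG cells of batch 2 (median 7.39 CPM) lie below those of batch 1 (median 50.6 CPM).

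Of the factors of the direct pathway, *Foxp2* was high in nearly all cells, while *Isl1* and *Ebf1* were uneven. *Foxp2* (chromosome 6, 14901349 to 15441977, plus strand) had a median of 309.6 CPM in REG cells (10.1 to 1112) and 156.3 CPM in HFD cells (3.66 to 1026). Its HFD values were shifted down within a range that the groups shared. In batch 1 the 5 HFD cells held 22.4, 133.7, 1026, 70.7 and 553.2 CPM against a median of 309.6 CPM in the 13 REG cells, and in batch 2 the medians were 162.6 CPM in HFD and 275.4 CPM in REG cells.

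*Isl1* (chromosome 13, 116298281 to 116309689, minus strand) was above 15 CPM in 12 of 23 REG and 10 of 20 HFD cells. Its median was 22.1 CPM in REG cells (0 to 187.5) and 17.5 CPM in HFD cells (0 to 468.9). HFD cell 16 held 468.9 CPM, 42.8% of the summed CPM of *Isl1* in HFD cells, and without it the diet ratio turned from higher to lower in HFD (log2 0.33 to -0.40). It had 0 counts in 7 cells. Since *Drd1* had counts in all 43 cells, its presence in these 7 does not set them apart, and REG cell 16 among them held 0.721 CPM of *Drd1*.

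*Ebf1* (chromosome 11, 44617317 to 45008091, plus strand) was present in every cell, mostly at a low level. Its median was 28.0 CPM in REG cells (2.91 to 600.2) and 18.98 CPM in HFD cells (2.46 to 395.6). Within REG cells it was above 15 CPM in 12 of 13 cells of batch 1 and 3 of 10 cells of batch 2. The highest 3 cells, REG cells 2 and 7 and HFD cell 3, were all of batch 1 and held 600.2, 456.8 and 395.6 CPM.

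The factors of the indirect pathway were the lowest of the set. *Six3* (chromosome 17, 85613608 to 85629302, plus strand) had a median of 5.42 CPM in REG cells (0 to 164.1) and 8.65 CPM in HFD cells (0 to 230.8), and passed 15 CPM in 9 REG and 7 HFD cells. HFD cell 11 held 230.8 CPM and was the cell in which *Six3* led all 10 factors by TPM. *Sp9* (chromosome 2, 73271925 to 73284706, plus strand) had a median of 0.269 CPM in REG cells (0 to 19.5) and 0.423 CPM in HFD cells (0 to 42.0). The 3 cells above 15 CPM of *Sp9* were HFD cell 6, HFD cell 16 and REG cell 16, all of batch 2. HFD cells 6 and 16 also held *Drd2*, at 37.7 and 9.82 CPM, whereas REG cell 16 held none. The 2 cells with the highest *Drd2*, HFD cells 4 and 14 at 52.0 and 47.6 CPM, held 1.11 and 0.481 CPM of *Sp9*.

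**Figure D3:**
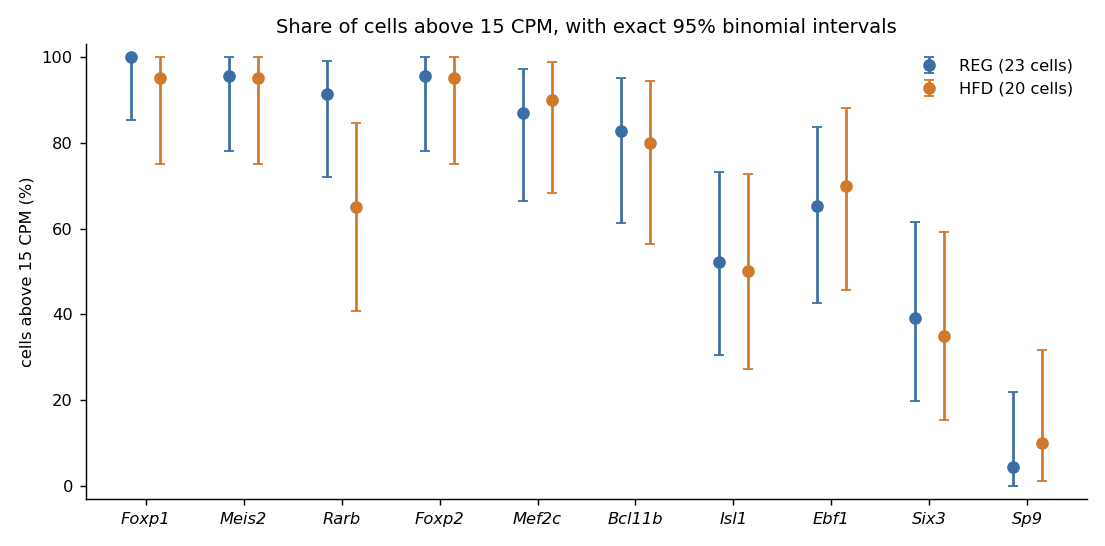
Share of REG (23) and HFD (20) cells above 15 CPM for each factor, with exact 95% binomial intervals as bars. The shares of the diets lie within 6 percentage points for 9 factors and apart for *Rarb*, at 91.3% of REG and 65.0% of HFD cells with overlapping intervals.

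Next, each factor was set beside the other members of its gene family, in mean TPM over the 43 cells. Retinoic acid receptors were almost exclusively *Rarb*, at 119.7 TPM against 0.646 for *Rara* and 0.228 for *Rarg*, so that *Rarb* made up 99.3% of the family. *Isl1* had no partner of its family, since *Isl2* had 0 counts in all 43 cells, which allows a share of cells with a count of up to 6.98%. *Ebf1* supplied 93.9% of the Ebf family and *Six3* 86.6% of the pair with *Six6*. *Meis2* supplied 74.3% of its family (163.1 TPM, against 38.2 for *Meis3* and 18.1 for *Meis1*) and exceeded *Meis1* in 41 cells. *Foxp1* exceeded *Foxp2* in 28 of 43 cells, and *Foxp4* reached 4.03 TPM. *Mef2c* supplied 59.1% of the Mef2 family, with *Mef2a* at 38.6 and *Mef2d* at 35.8 TPM. In the remaining families the paralogue was the higher gene by mean TPM. *Bcl11a* stood at 64.5 TPM against 36.8 for *Bcl11b* and was the higher of the pair in 26 of 43 cells (15 of 23 REG and 11 of 20 HFD cells), while by median TPM *Bcl11b* (34.7) was above *Bcl11a* (31.4). *Sp8*, which acts beside *Sp9* in indirect-pathway neurons, stood at 6.92 TPM against 1.19 for *Sp9* and was higher in 31 cells. Of the 16 paralogues, 6 passed the filter and none of them was past a 2-fold difference between diets, against 23.3% of all filtered genes. Their median log2 ratio was -0.52, against -0.13 for all filtered genes. Of the 6, only *Meis1* had the same sign in both batches (-2.07 in batch 1 and -0.10 in batch 2). *Bcl11a* (0.27 and -1.32), *Meis3* (0.91 and -2.15) and *Sp8* (-0.58 and 3.18) were among those that turned.

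**Figure D4:**
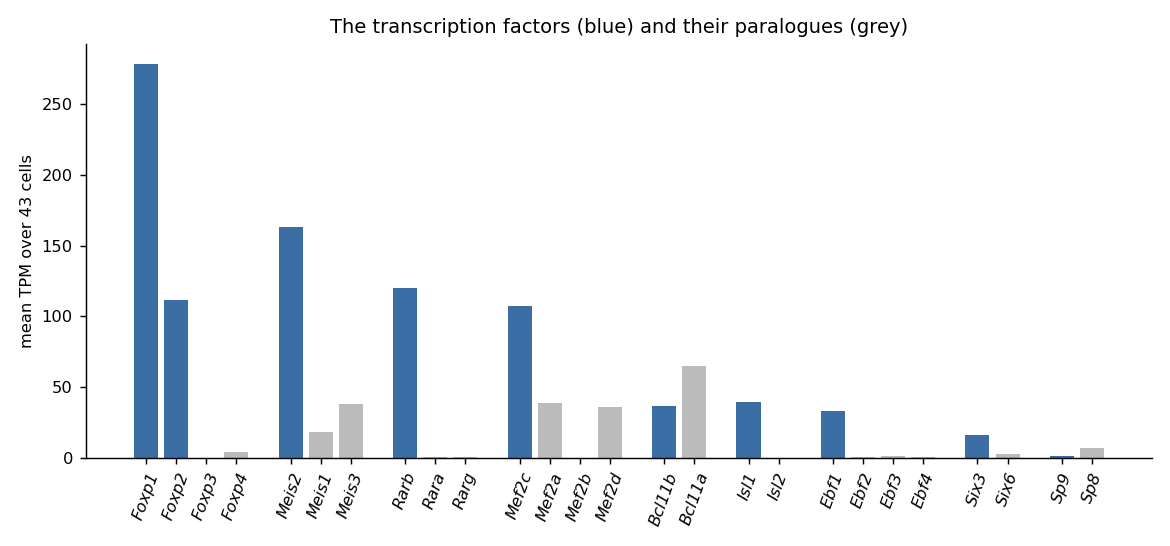
Mean TPM over the 43 cells for each factor (blue) and the paralogues of its family (grey), grouped by family. *Rarb* (119.7 TPM) stands alone among the retinoic acid receptors, whereas *Bcl11a* (64.5 TPM) exceeds *Bcl11b* (36.8 TPM).

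Proteins that bind these factors were also present. Of 22 partners, 19 passed the filter and 3 had counts in every cell. The most abundant were the corepressor *Ncor1*, which binds unliganded retinoic acid receptors (140.6 TPM), the LIM-only protein *Lmo4* (116.6 TPM), the retinoid X receptor *Rxrg* (98.7 TPM) and the class IIa deacetylase *Hdac5*, which binds Mef2 factors (91.3 TPM). *Rxrg*, which is enriched in the striatum, exceeded *Rxrb* (36.4 TPM) and *Rxra* (5.34 TPM). In 5 of the 19 partners the mean CPM of the diets differed at least 2-fold, a share close to the 23.3% of all filtered genes. *Hdac4* (log2 1.70) and *Gatad2a* (1.10) were higher in HFD cells over all cells but not in batch 1 (-0.08 and -0.81). *Mta3* (-3.01, 11.98 CPM in REG and 1.49 CPM in HFD), *Mta1* (-1.58) and *Mta2* (-1.18), subunits of the NuRD complex that *Bcl11b* recruits, were lower in HFD cells in both batches, *Mta1* in batch 2 by little (-0.11). The other subunits of that complex on the list, *Chd4* (-0.28), *Gatad2b* (-0.45) and *Gatad2a*, were above 0 in batch 2 (0.19, 0.19 and 2.18). *Mta3* was lower under all 12 alternative settings, and *Mta1* and *Mta2* under 11 of 12 each. Leaving out 1 cell moved *Mta1* to between -2.14 and -0.14, and *Mta3* to between -4.04 and -2.51. The median log2 ratio of the 19 partners was 0.06, against -0.13 for all filtered genes.

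Of 15 other transcription factors of the striatal lineage, 8 passed the filter. The early progenitor factors *Gsx1* and *Gsx2* had 0 counts in all cells. *Sox4*, which had counts in all 43 cells, *Dlx5*, *Dlx6* and *Zeb2* were the most abundant, at 31.0, 30.1, 25.5 and 18.6 mean TPM. Factors of other cell types were mostly low, although some had counts in many cells. None of 8 factors of cortical projection neurons passed the filter, and their summed level had a median of 5.05 CPM in REG and 6.36 CPM in HFD cells, while *Neurod6* had counts in 25 cells and *Tbr1* in 23. Among the factors and markers of striatal interneurons, *Lhx8*, which specifies cholinergic neurons, had counts in 1 cell, *Chat* in 5 and *Slc18a3* in none. Of the other interneuron genes, *Lhx6* had counts in 23 cells, *Pvalb* in 24, *Sst* in 21 and *Npy* in 13, and the last 3 passed the filter, at 20.04, 35.3 and 51.5 mean TPM. *Sst* was past 2-fold and higher in HFD over all cells (1.15) but lower in batch 1 (-3.24). The endothelial factor *Sox17* had 0 counts in all cells and *Erg* had counts in 24, the astrocyte factor *Sox9* had counts in 28, and the myeloid factor *Spi1* had counts in 12 and passed the filter.

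The question of the diet comparison was whether these factors changed with chronic high-fat diet. None of the 10 differed at least 2-fold in mean CPM between HFD and REG cells, whereas 23.3% of the 10802 filtered genes did. The median absolute log2 ratio was 0.32 over the 9 filtered factors and 0.54 over all filtered genes, which also had a median log2 ratio of -0.13. That background was not matched to the factors in level or spread. The 9 factors ran from the 43.2nd (*Six3*) to the 96.1st percentile (*Foxp1*) of median TPM. In the coefficient of variation they ran from the 1.52nd (*Meis2*) to the 60.4th (*Six3*). The part of level and spread in this contrast was not tested. *Mef2c* came closest, at log2 0.98 (139.7 CPM in REG, 275.0 CPM in HFD), and stood at the 90.6th percentile of all ratios. It passed 2-fold with TMM factors (1.42), with DESeq2 size factors (2.12) and after thinning (1.12), but not without HFD cell 13 (0.46). *Foxp2* followed at -0.64 (363.9 and 234.1 CPM). The remaining ratios were -0.38 for *Rarb*, 0.33 for *Isl1*, -0.32 for *Bcl11b*, -0.29 for *Ebf1*, 0.29 for *Sp9* and 0.23 for *Foxp1*. *Meis2* and *Six3* were nearest to no difference, both at -0.02 and both above 0 with TMM factors (0.11 and 0.16). Since each diet counted as 1 sample, these ratios have no error over mice.

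**Figure D5:**
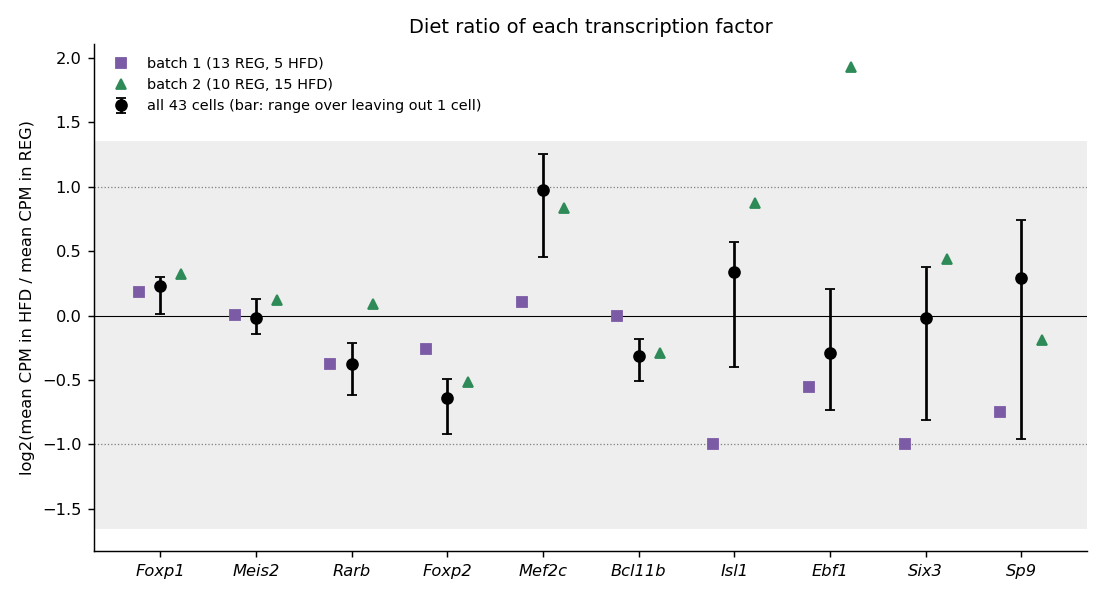
The log2 ratio of mean CPM in HFD over REG cells for each factor, over all cells (black, with the range over leaving out each cell in turn), in batch 1 (squares) and in batch 2 (triangles). Dotted lines mark a 2-fold difference and the grey band holds the middle 90% of all filtered genes; *Mef2c* lies at 0.98 over all cells and *Ebf1* at 1.93 in batch 2.

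Within batches the ratios of several factors changed sign. Within batch 1, none of the 10 factors was past 2-fold, against 42.2% of genes, and *Isl1* (-0.99) and *Six3* (-0.997) were the nearest. Within batch 2, *Ebf1* was past 2-fold and higher in HFD (1.93), against 34.6% of genes. In 4 factors the ratio kept its sign over all cells and in both batches, as it did in 47% of filtered genes. *Foxp1* (0.18 in batch 1 and 0.32 in batch 2) and *Mef2c* (0.10 and 0.83) were higher in HFD cells, and *Foxp2* (-0.26 and -0.51) and *Bcl11b* (-0.0017 and -0.29) were lower. The sign of *Foxp1* turned with the mean of log2(CPM + 1), in which low cells weigh more (-0.44), with medians (-0.09) and in TPM (-0.014). *Meis2* (0.0033 and 0.12), *Rarb* (-0.38 and 0.09), *Isl1* (-0.99 and 0.87), *Ebf1* (-0.55 and 1.93), *Six3* (-0.997 and 0.44) and *Sp9* (-0.75 and -0.19) did not keep the sign they had over all cells.

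Single cells carried much of these ratios for the uneven factors. Leaving out 1 cell at a time moved *Meis2* between -0.14 and 0.13 and *Foxp2* between -0.92 and -0.49. *Mef2c* moved between 0.46, without HFD cell 13, and 1.25, without REG cell 18. *Ebf1* moved between -0.73, without HFD cell 3, and 0.21, without REG cell 2. *Six3* fell to -0.81 without HFD cell 11 and rose to 0.37 without REG cell 9, and *Sp9* ran from -0.96 without HFD cell 6 to 0.74 without REG cell 16. *Foxp1*, *Foxp2*, *Bcl11b*, *Rarb* and *Mef2c* kept their sign whichever cell was left out. Of these, *Foxp1* fell to 0.0079 without HFD cell 20. *Rarb* ran from -0.62 without HFD cell 20 to -0.21 without REG cell 4, and *Bcl11b* from -0.51 without HFD cell 4 to -0.19 without REG cell 1.

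The batches differed in some factors more than the diets did. Within REG cells, *Ebf1* was lower in batch 2 than in batch 1 (log2 -3.10, 15.3 against 131.0 CPM) and *Sp9* was higher (2.14, 5.06 against 1.15 CPM), and 37.2% of filtered genes were past 2-fold. Within HFD cells, *Isl1* (1.38), *Mef2c* (1.54) and *Sp9* (2.70) were higher in batch 2, against 48.2% of filtered genes. The ratios of *Isl1* and *Sp9* within HFD cells turned sign when medians replaced means (both -1.08), since the HFD medians of batch 2 were 10.8 and 0.366 CPM against 22.8 and 0.774 CPM in batch 1. The ratio of *Mef2c* within HFD cells fell to 0.03 with medians (147.1 CPM in batch 1 and 149.96 CPM in batch 2). Short of 2-fold, *Foxp2* (-0.66 in REG and -0.91 in HFD), *Rarb* (-0.94 and -0.47) and *Bcl11b* (-0.37 and -0.66) were lower in batch 2 in both diets. The diet ratio of *Foxp2* over all cells (-0.64) lay beyond its values within batch 1 (-0.26) and batch 2 (-0.51). The part of batch in it was not tested. *Foxp1* differed little between batches in either diet (-0.18 in REG and -0.04 in HFD), and *Meis2* likewise (-0.33 and -0.21).

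HFD cell 13 stood apart from the other cells in these factors. It held the highest *Mef2c* of all cells (1858 CPM, 821.5 TPM) and the second highest *Meis2* (721.4 CPM), while *Foxp1*, *Bcl11b* and *Rarb* were each at 1.42 CPM and *Isl1* was at 0. The effector genes of medium spiny neurons were mostly missing as well, with *Pdyn* at 2.84, *Tac1* at 8.53, *Rgs9* at 1.42 and *Pde10a* at 0.711 CPM. It was GABAergic by *Gad1* (875.5 CPM) and *Gad2* (264.7 CPM), and *Ppp1r1b* (759.7 CPM) and *Drd1* (86.0 CPM) were present. Microglia markers summed to 7.23 CPM in it, and factors of cortical projection neurons to 220.1 CPM, the highest sum of any cell. Of 18 effector genes, 8 were above 15 CPM in it, the fewest of any cell. Without this cell, the diet ratio of *Mef2c* was 0.46, that of *Foxp1* 0.30, that of *Rarb* -0.31 and that of *Meis2* -0.14. HFD cell 17 held 441.2 CPM of *Mef2c*, with *Foxp1* at 16.9, *Bcl11b* at 0.766, *Rarb* at 2.92 and *Isl1* at 1.92 CPM. HFD cell 19 held 823.5 CPM of *Mef2c*, with *Rarb* at 0.732 CPM and *Isl1* at 0, but *Foxp1* at 152.2 and *Bcl11b* at 21.8 CPM. Of the 18 effector genes, 11 were above 15 CPM in HFD cell 17 and 12 in HFD cell 19.

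Finally, the factors were compared with each other across cells. Over 45 pairs, Spearman's rho of CPM ran from -0.27 to 0.44 with a median of 0.07, as a description over 43 cells that share mice, batches and differences of depth. The highest values were those of *Foxp2* with *Rarb* (0.44) and of *Bcl11b* with *Meis2* (0.44), and *Foxp1* with *Rarb* followed at 0.41. In 3 of the 9 pairs above 0.3, all with *Foxp2*, rho was above 0.3 in both batches. These were its pairs with *Rarb* (0.33 and 0.43), *Foxp1* (0.32 and 0.43) and *Isl1* (0.38 and 0.33). With the cells thinned to equal counts, rho of *Foxp2* was 0.40 with *Rarb*, 0.34 with *Foxp1* and 0.23 with *Isl1*. *Ebf1* with *Foxp2* (0.31 to 0.22) and *Foxp1* with *Meis2* (0.30 to 0.22) also fell below 0.3, while *Isl1* with *Six3* rose from 0.28 to 0.42. No share for pairs of other genes is given beside these values. The factors of the direct pathway, *Isl1* and *Ebf1*, had a rho of 0.07 (0.47 in batch 1 and -0.20 in batch 2), and *Six3* and *Sp9* of the indirect pathway one of 0.03.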

How the data were processed

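Single-cell patch sequencing libraries of 43 NAcLat→VTA cells were analysed. The authors amplified poly-A RNA with SMART-Seq kits, prepared libraries with Nextera XT, sequenced paired ends, assigned reads to mouse transcripts (GRCm38) by kallisto pseudo-alignment and removed cells with few reads or genes. One table deposited by the authors holds estimated counts per gene, which are not normalized and include fractions where reads fit several transcripts. The other table deposited by the authors holds TPM, which is scaled to transcript length and to a fixed sum within each cell. Reads shared by paralogues could thus be split between genes by the estimate.

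CPM was the estimated count over the total of the cell, times 1000000. The log2 ratio compared the mean CPM of both diets (HFD over REG), each cell weighted equally and no pseudocount added. A gene was past 2-fold at an absolute log2 ratio of 1 or more. Shares of cells carry exact (Clopper-Pearson) 95% binomial intervals, and a count of 0 was given the limit that 3 cells allow. These intervals treat cells as independent draws, although cells share mice, and do not cover the spread between mice. Amplified reads without molecular identifiers are not independent molecules. Thinning drew 150000 counts per cell without replacement. No 2 cells held identical counts. The computation of the ratios was tested on simulated data. Alternatives were TPM, TMM factors (edgeR 4.0.16), DESeq2 1.42.0 size factors, medians, summed counts, the mean of log2(CPM + 1), each batch, thinning, other filters and leaving out each cell. Totals without *Lars2* and *Gm19220* and the ratios without HFD cell 13 were added after seeing the data. Python 3.11.15 and R 4.3.3 were used.

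The factors and gene lists were chosen with earlier results of these data known. All 10 factors are named. From other lists, up to 4 genes with the highest mean TPM, up to 4 past 2-fold whose sign held in each batch, and defining markers at or near 0 are named. Further paralogues and retinoid X receptors, *Hdac4*, *Gatad2a*, *Gatad2b*, *Chd4*, *Penk*, the markers of other cell types with counts in many cells, and the single cells described were named after their values were seen. The diet ratios of the other striatal lineage factors are not reported here. Positions came from GENCODE vM21 and promoter windows from RefSeq.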

Additional observations from a re-analysis of the deposited data

How the results depend on the processing

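Since each diet counted as 1 sample, the results have no error over mice, and depth limits *Sp9* and *Six3* most, with 338 and 2327 summed counts over all cells. No paired analysis was possible because the cells carry no label that ties a REG cell to an HFD cell. The count of filtered factors past 2-fold, 0 of 9, became 1 with TMM factors, DESeq2 size factors and thinning (*Mef2c* in each), with summed counts (*Six3*, 1.24), with the mean of log2(CPM + 1) (*Rarb*, -1.45) and in batch 2 alone (*Ebf1*), and ran from 0 to 1 when 1 cell was left out. It was 0 in TPM, with medians, in batch 1, with other filters, with totals without *Lars2* and *Gm19220* and without HFD cell 13. The share of all genes past 2-fold, 23.3%, rose to 47.3% with medians (of the genes whose median was above 0 in either diet), 35.9% with summed counts, 42.2% in batch 1 and 40.2% without the filter, and ran from 22.5% to 25.4% when 1 cell was left out. The median log2 ratio of all filtered genes moved by 0.27 with DESeq2 size factors, by 0.14 with TMM factors, by -0.12 with the mean of log2(CPM + 1) and by -0.27 with medians. Of all filtered genes, 9.05% were past 2-fold and higher and 14.3% lower in HFD cells. That split was 21.6% and 12.7% with DESeq2 size factors and 13.1% and 12.3% with TMM factors. Over 12 alternatives, *Mef2c* was higher in HFD cells in 12, *Foxp2* and *Bcl11b* lower in 12, *Rarb* lower in 10, and the other factors took the opposite sign in at least 3. The number of factors with counts in every cell, 5, fell to 0 at 15 CPM, to 1 after thinning and to 0 at 10 counts or more. Within HFD cells, the batch ratios of *Isl1* and *Sp9* reversed with medians (-1.08 each). The causes were not tested.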
